A study of Mus musculus with 12 samples.

Results

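Leukocytes recovered from the prostate 28 days after the combined Tumor+Allo/Y transfer (samples 10, 11 and 12) were set against leukocytes recovered 1 week after the Allo/Y transfer (samples 1, 2 and 3). Both groups are CD45+ cells from the prostate of C57Bl/6 TRAMP mice, which carry a transgene driven by a prostate epithelial promoter that gives rise to prostate tumours, and each group comprised 3 mice. The whole study has 12 arrays in 4 groups of 3, and the Tumor+Allo/Y arrays taken at 1 week (samples 7, 8 and 9) show the same transfer at the earlier time. Group names are those of the adoptive T cell transfers, and Allo/Y is a label without an expansion in the sources used here, which also give no age. All groups received a transfer. The day 28 and Allo/Y groups differ in both the transfer and the time, so a difference between them cannot be assigned to one or the other. Of 45281 probes on the array, 23054 were kept because their detection p was under 0.05 on at least 3 of the 12 arrays, and these gave 11971 genes.

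CD45, the product of Ptprc, is a surface phosphatase carried by blood cells of all leukocyte lineages. T cells recognise antigen through the T cell receptor and its CD3 chains, receive costimulation through CD28 and ICOS, and are restrained by inhibitory receptors such as CTLA-4 and LAG-3. Activated T cells and NK cells release interferon gamma, which acts on neighbouring cells to raise chemokines, guanylate-binding proteins and antigen presentation. Type I interferons act through a related pathway and raise an overlapping set of antiviral genes. T cells that settle in epithelial tissues often carry the integrin CD103 and the receptor CXCR6.

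Values below are normalized log2 intensities, differences are log2 differences ± SE from one limma fit with 3 arrays a group, and a gene is called at an adjusted p under 0.05. The labels speak of 3 mice per group, so the spread between arrays is taken as that between mice. Between 41.9% and 48% of probes were detected per array. Arrays correlated at 0.9811 to 0.9863 within the day 28 group and at 0.9858 to 0.9931 within Allo/Y, against 0.8762 to 0.9229 between the groups.

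Genes that all leukocytes express differed strongly between the groups. Ptprc itself read 8.26, 7.78 and 8.42 at day 28, against 5.38, 5.37 and 5.67 in Allo/Y, so the groups did not overlap. The 24 measured genes of a leukocyte reference list (signalling and cytoskeletal genes such as Coro1a and Rac2) averaged 11.15, 10.85 and 11.08 at day 28, and 8.72, 9.01 and 8.90 in Allo/Y. All 24 were called higher (median difference 2.17). The 19 measured genes of basal and luminal epithelium averaged 9.62, 10.02 and 9.37 at day 28, and 11.16, 10.97 and 10.94 in Allo/Y, with 5 of the 19 called lower (24.4% of all genes were) and 14 not called, and the keratin genes Krt14 and Krt17 were detected on all 12 arrays although the cells are labelled CD45+. In bulk RNA, fewer cells of a type and less RNA per cell cannot be told apart. The part of the unequal leukocyte and epithelial RNA in the differences below was not tested, but a second scale, which subtracts from each array its mean over the leukocyte reference genes, is given beside the lists. On that scale 93.5% of all genes were called lower at day 28, and any gene whose difference is below the leukocyte shift of 2.15 has a negative value. List counts on that scale are therefore to be read against 93.5% called lower and 0.902% called higher among all genes.

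Of the 11971 genes, 5183 were called (43.3%), 2258 of them higher (18.9%) and 2925 lower (24.4%) at day 28, with a median over all genes of -0.05. The day 28 values lay wholly above those of Allo/Y for 3452 genes (28.8%) and wholly below for 4289 (35.8%), together 64.7%. T cell genes filled much of the top of the ranking. Among the 12 largest rises were Ctla4, Cd8b1, Cd28, Cd6, Cd27, Cd2, Icos, Lat and Gzmk, beside the interferon-induced Gbp2b and Cxcl9 and the little-described gene Fam169b. The 12 largest falls were those of Scgb2b27, Scgb2b7, Cdcp3, Obp2a, Tff3, Atp13a4, Acrbp, Azgp1, Egf, Klk1b24, Dclk3 and Bhlha15. Relative to the leukocyte genes, whose mean was 2.15 higher at day 28, 108 genes were higher (0.902%) and 11193 lower (93.5%), 94.4% in all, with a median over all genes of -2.20.

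**Figure D1:**
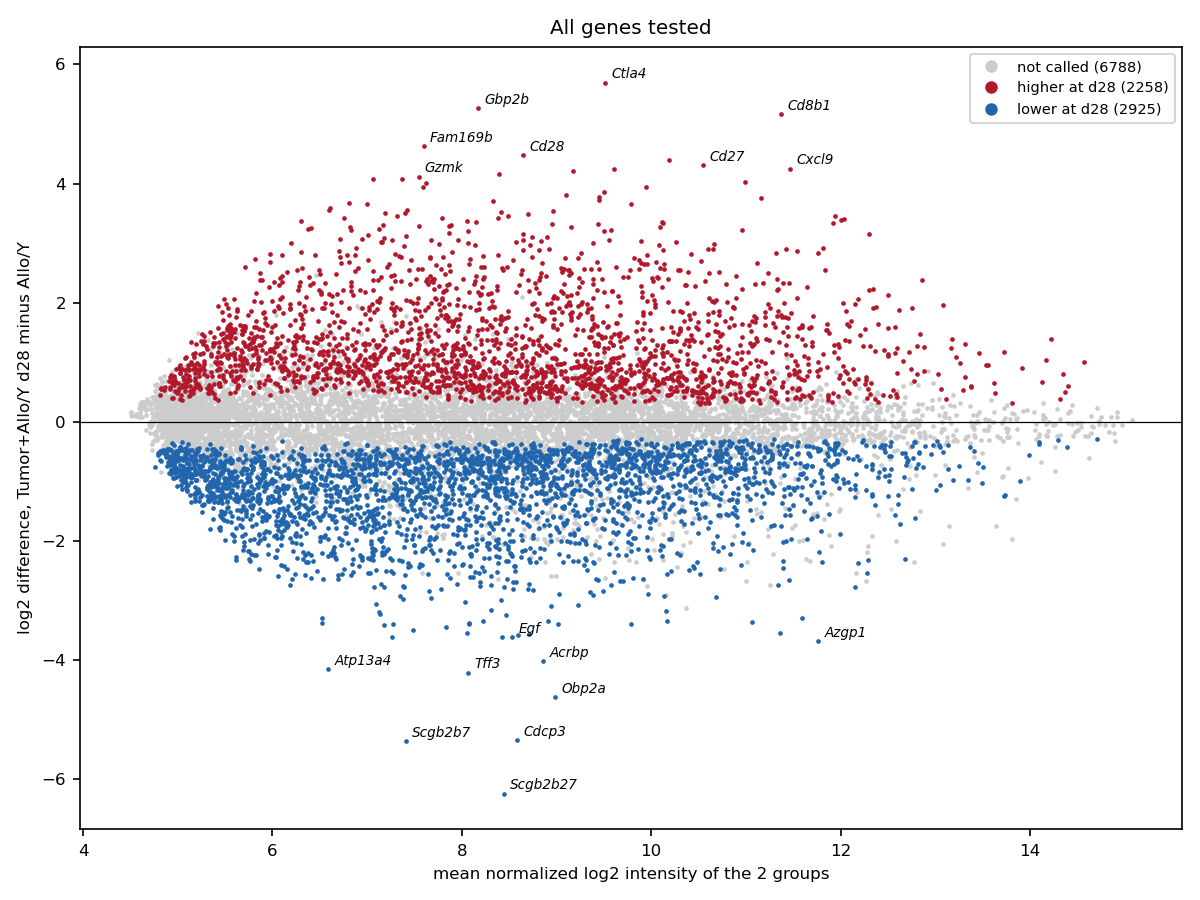
Difference between Tumor+Allo/Y d28 and Allo/Y for each of the 11971 genes tested (vertical axis, log2) against the mean level of both groups (horizontal axis, normalized log2 intensity). Red points are the 2258 genes called higher, blue points the 2925 called lower and grey points those not called; the highest labelled point is Ctla4 (5.70) and the lowest Scgb2b27 (-6.24).

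T cell receptor and identity genes were higher at day 28 without exception among those measured. All 14 of 18 listed genes that could be tested were called higher, with differences of 2.56 to 4.48 and a median of 3.76. Cd3e, a signalling chain of the receptor complex, read 13.28, 13.20 and 12.52 at day 28, against 8.84, 9.04 and 9.06 in Allo/Y. Every day 28 library lay far above every Allo/Y library, a difference of 4.02 ± 0.40 (16.2-fold, adjusted p = 5.65e-05), and the other Cd3e probe gave 3.96. Cd28, the main costimulatory receptor, read 11.30, 11.00 and 10.35 at day 28 and 5.96, 6.77 and 6.49 in Allo/Y (difference 4.48 ± 0.41, 22.3-fold). Cd247, whose product is the zeta signalling chain, differed by 4.08 ± 0.24 (adjusted p = 6.49e-06) and Lat, the adaptor that links the receptor to downstream signalling, by 4.15 ± 0.30. Smaller rises came from the other 2 kept probes of Cd247 (1.65 and 2.49) and the other probe of Lat (1.01). All were called higher, but the values of 1.65 and 1.01 lay below the leukocyte shift of 2.15.

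On the probes used, these rises exceeded the shift of the leukocyte genes for most of the list. On the leukocyte scale 12 of the 14 T cell genes were still called higher and none lower, with a median of 1.61, and Cd3e stood at 1.87 ± 0.52 (adjusted p = 0.00457). Within the day 28 group the list mean was highest in sample 10 (11.57), then sample 11 (11.22), and lowest in sample 12 (10.88). In Allo/Y it lay between 7.41 and 7.68, so the spread between day 28 mice was small beside the difference between groups.

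Cd8b1, the beta chain of the CD8 coreceptor of cytotoxic T cells, reached 14.21, 14.09 and 13.56 at day 28, and 8.93, 8.90 and 8.52 in Allo/Y. The difference was 5.17 ± 0.32 (36.0-fold, adjusted p = 7.47e-06), but the other 2 kept probes of the gene ran from -0.63 to 5.73, 1 called higher and 1 lower. Cd4, the coreceptor of helper T cells, was not above background on any Allo/Y array and was at least 2.14-fold higher at day 28 (means 6.09 and 4.67, adjusted p = 0.000821). On the leukocyte scale Cd8b1 stood at 3.02 ± 0.42 and was called higher, while Cd4 stood at -0.74 ± 0.33 (adjusted p = 0.0520). The 2 probes annotated to Cd8a were not detected on any array.

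Cytotoxic effector genes were also mostly higher at day 28. Of 11 measured, 10 were called higher, with a median of 2.84. On the leukocyte scale 6 were called higher and 2 lower (median 0.69). Gzmk, a granzyme of memory-type CD8 T cells, read 9.62, 9.72 and 9.46 at day 28, against 5.38, 5.80 and 5.28 in Allo/Y, a 17.3-fold difference (4.12 ± 0.26, adjusted p = 8.54e-06). The day 28 values lay within a narrow band, more than 3 units above the highest Allo/Y value. Cst7, an inhibitor of granzyme-activating cathepsins, differed by 3.17 ± 0.21 and Nkg7, a protein of cytotoxic granules, by 3.15 ± 0.28. Prf1, which encodes perforin, gave 0.54 ± 0.27 on the probe used (adjusted p = 0.123) and 2.86, a call, on its other probe. The probe for Gzmb was not detected on any array.

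The inhibitory receptors include Ctla4, the gene with the largest rise among the named genes tested. All 8 measured members were called higher (median 2.41). Ctla4, which competes with CD28 for its ligands, read 12.77, 12.15 and 12.16 at day 28, against 6.28, 6.87 and 6.84 in Allo/Y. That is a difference of 5.70 ± 0.33 (51.8-fold, adjusted p = 6.49e-06), and 3.54 ± 0.40 on the leukocyte scale. Lag3, an inhibitory receptor for MHC class II, read 10.20, 9.72 and 9.56 at day 28 and 6.46, 6.55 and 6.42 in Allo/Y (difference 3.35 ± 0.25, 10.2-fold). Pdcd1, which encodes PD-1, was at least 2.58-fold higher, being not above background on any Allo/Y array (means 6.35 and 4.78, adjusted p = 0.00232). Relative to the leukocyte genes 3 of the 8 were called higher and none lower.

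**Figure D2:**
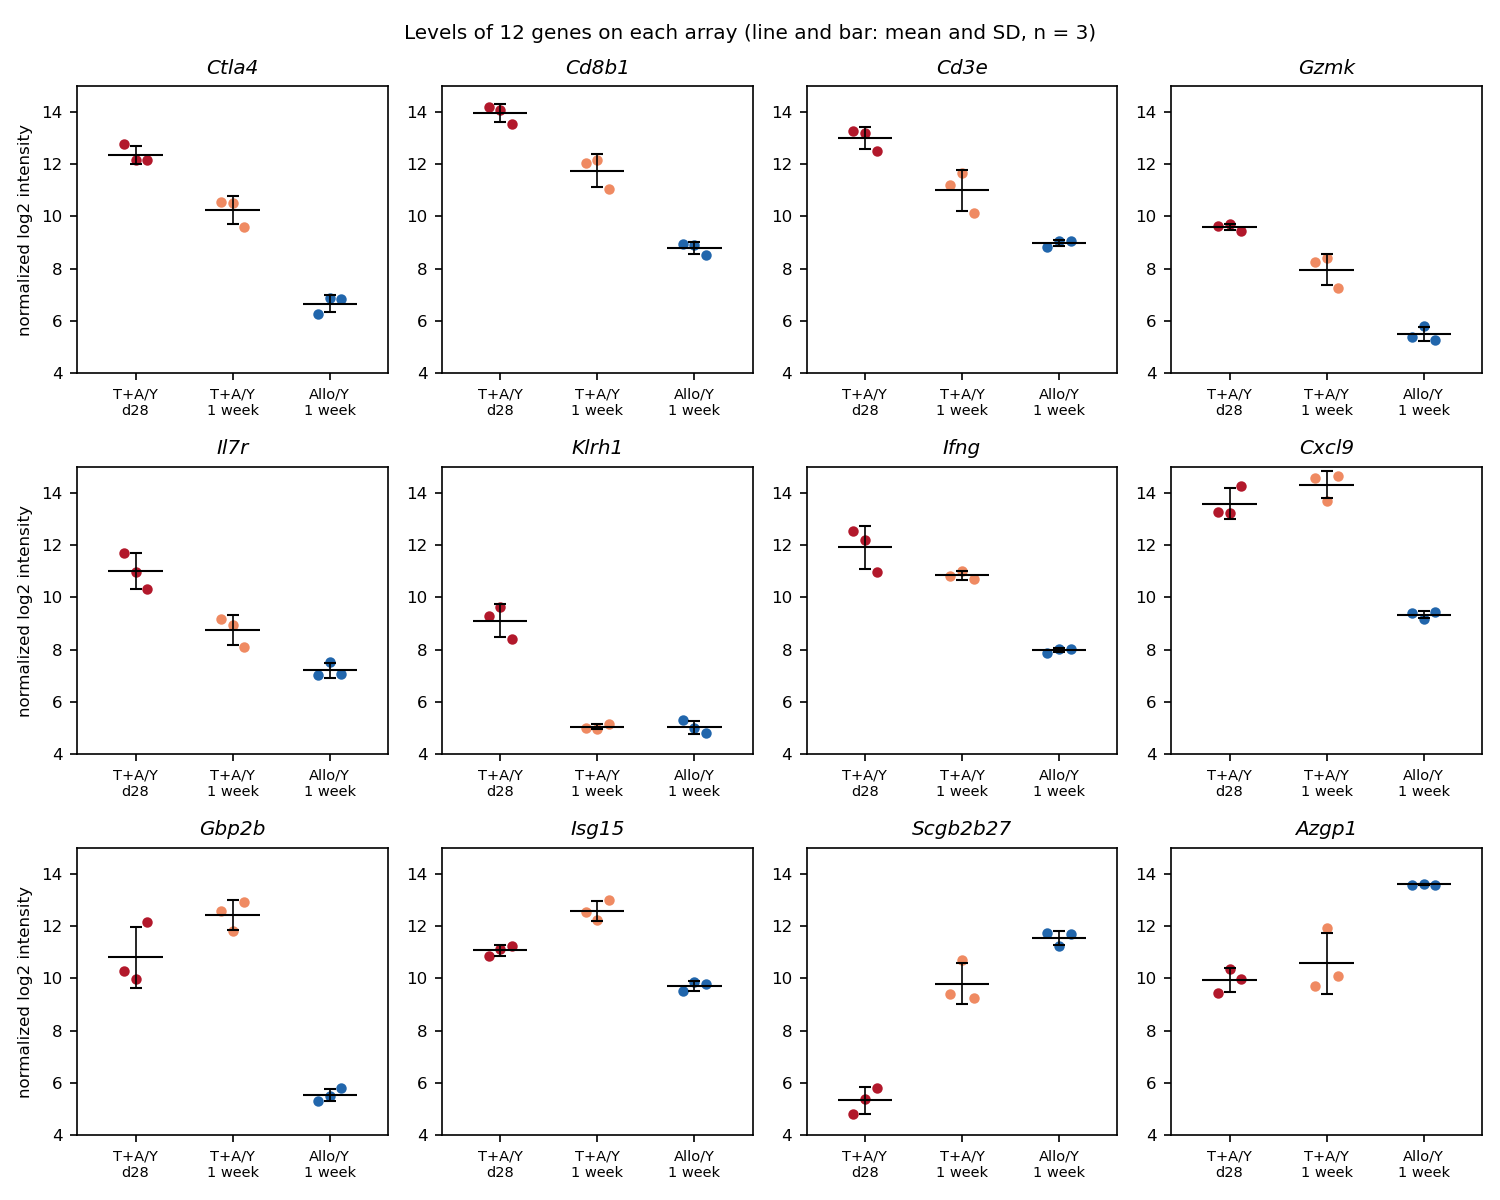
Normalized log2 intensity (vertical axis) of 12 genes on each array of Tumor+Allo/Y d28 (T+A/Y d28), Tumor+Allo/Y at 1 week (T+A/Y 1 week) and Allo/Y at 1 week; points are arrays, lines and bars the mean and SD of 3. Ctla4, Cd8b1, Cd3e, Gzmk and Il7r stand highest at day 28, Klrh1 is high at day 28 and near background in both 1 week groups plotted, and Scgb2b27 and Azgp1 are highest in Allo/Y.

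Genes of regulatory T cells were mixed. Of 6 measured, 4 were called higher. They included Tnfrsf4 and Tnfrsf18, costimulatory receptors that regulatory and activated T cells share, with differences of 3.85 ± 0.37 and 3.32 ± 0.35, and Il2ra, the alpha chain of the interleukin-2 receptor, with 1.33 ± 0.18. Relative to the leukocyte genes 2 of the 6 were called higher and 3 lower (median -0.73), Il2ra among the lower at -0.82 ± 0.22 (adjusted p = 0.00451). That position depended on the probe, since the other kept Il2ra probe rose by 2.46, a call, above the leukocyte shift of 2.15. Foxp3, the defining transcription factor of regulatory T cells, read 9.71, 9.62 and 9.66 at day 28, against 9.42, 9.43 and 9.28 in Allo/Y. Its difference of 0.29 ± 0.22 was not called on the probe used (adjusted p = 0.305), although the groups did not overlap, while its other 3 probes ran from 1.33 to 3.43 and were all called higher. The size of the Foxp3 difference and its call therefore depended on the probe, while the sign was the same on all 4.

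Among 11 measured genes of T cell memory and tissue residency 9 were called higher. Il7r, the interleukin-7 receptor that sustains memory T cells, read 11.72, 10.97 and 10.33 at day 28, against 7.01, 7.52 and 7.08 in Allo/Y (difference 3.80 ± 0.37, 13.9-fold). Cxcr6, a chemokine receptor of tissue T cells, read 9.07, 8.88 and 8.54 at day 28 and 5.13, 5.31 and 5.06 in Allo/Y (difference 3.66 ± 0.39, 12.7-fold). Itgae, the CD103 integrin chain that binds E-cadherin on epithelium and that some dendritic cells also carry, read 12.95, 12.61 and 11.77 at day 28, against 9.69, 9.85 and 9.80 in Allo/Y (difference 2.67 ± 0.53, adjusted p = 0.00269). In all 3 genes sample 10 was the highest and sample 12 the lowest of the day 28 libraries, and no day 28 value reached into the Allo/Y range. Only part of the list outran the leukocyte shift, with 2 members called higher and 4 lower on that scale. Transcription factors and receptors of effector T cells were called higher in 10 of 11 cases, among them Tbx21, the master regulator of type 1 responses (3.38 ± 0.33), Stat4, which relays interleukin-12 (3.66 ± 0.34), and Il18rap, a chain of the interleukin-18 receptor (2.79 ± 0.27). The Il18rap difference depended on the probe, since its other kept probe gave -0.06 and was not called. On the leukocyte scale 2 of these 11 effector genes were called higher and 1 lower (median 0.22).

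Interferon gamma and its targets stood well above Allo/Y at day 28. Ifng read 12.56, 12.22 and 10.99 at day 28, against 7.88, 8.03 and 8.03 in Allo/Y. The difference was 3.94 ± 0.33 (15.4-fold, adjusted p = 2.20e-05), and 1.79 ± 0.37 on the leukocyte scale. Its receptor chain Ifngr1 (2.24 ± 0.19) and the kinase Jak2 (1.18 ± 0.12) were also called higher, as were 6 of the 8 measured genes of the cytokine and its signalling. Of these 8, 1 was called higher and 5 lower on the leukocyte scale (median -0.91), with Jak2 at -0.97 ± 0.22 and called lower. Of 19 measured interferon gamma response genes 17 were called higher (median 2.32), and 6 were called higher and 4 lower on the leukocyte scale.

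Gbp2b, an interferon-inducible GTPase that acts against intracellular pathogens, read 10.28, 9.98 and 12.15 at day 28, against 5.31, 5.49 and 5.79 in Allo/Y. Cxcl9, a chemokine that draws T cells through CXCR3, read 13.27, 13.23 and 14.27 at day 28 and 9.41, 9.17 and 9.43 in Allo/Y. Both genes were highest in sample 12, the library in which Ifng and the T cell genes were lowest of the 3, and neither group overlapped the other. Their differences were 5.27 ± 0.65 for Gbp2b (38.6-fold, adjusted p = 0.000188) and 4.25 ± 0.38 for Cxcl9 (19.1-fold, adjusted p = 3.11e-05). The mean of the response list showed the same order, at 10.24, 10.12 and 11.09 in samples 10, 11 and 12, against 8.00, 8.06 and 8.16 in Allo/Y. Nlrc5, which turns on MHC class I genes, differed by 2.75 ± 0.16.

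Promoters of 2 interferon-induced genes are shown because the ISRE motif, the interferon-stimulated response element, was searched in this list. The windows run from 250 bases before to 50 bases after the RefSeq transcript start on GRCm38.p6, with the motif in capitals. The Gbp2b window is chr3:142594597-142594896 on the plus strand, where the motif lies in the opposite orientation and starts at -137. The Isg15 window is chr4:156200769-156201068 on the minus strand, with 3 overlapping matches that start at -78, -72 and -66.
Gbp2b: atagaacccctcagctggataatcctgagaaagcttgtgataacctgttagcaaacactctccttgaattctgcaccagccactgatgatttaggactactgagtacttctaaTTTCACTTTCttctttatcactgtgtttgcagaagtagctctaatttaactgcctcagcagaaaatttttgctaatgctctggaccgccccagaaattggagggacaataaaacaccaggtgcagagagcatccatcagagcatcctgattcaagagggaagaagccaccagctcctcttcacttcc
Isg15: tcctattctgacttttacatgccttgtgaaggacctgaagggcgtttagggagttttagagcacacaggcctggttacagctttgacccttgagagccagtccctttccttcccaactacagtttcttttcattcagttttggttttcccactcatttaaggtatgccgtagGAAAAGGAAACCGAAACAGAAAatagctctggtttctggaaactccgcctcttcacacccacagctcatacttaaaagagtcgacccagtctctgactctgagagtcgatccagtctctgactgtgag

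ISRE was searched as GAAA, any 2 bases and GAAA again, on both strands, with overlapping matches counted. The motif was found in 1131 of 32851 promoter windows (3.44%) and in 376 of the 9654 tested genes that have a window (3.89%). Of the genes with a window, 11 of 15 interferon gamma response genes held it and 10 of 16 type I interferon response genes. In the other lists searched, it was held by 0 of 9 T cell receptor and identity genes and 2 of 13 epithelial genes (15.4%). A gene with several windows was counted when any of them held the motif. The windows of Cxcl9, Irf7 and Ifit2 did not hold ISRE. A second motif, GAS (TTCNNNGAA, N being any base), was also searched and was found in 816 of the 9654 tested genes (8.45%). It was held by 7 of 15 interferon gamma and 5 of 16 type I interferon response genes. In the other lists 1 of 9 T cell genes and 2 of 13 epithelial genes held it. A match is a description of the letters only.

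Of 22 measured type I interferon response genes 11 were called higher and 11 were not called (median 0.76). Isg15, a ubiquitin-like antiviral modifier, read 10.85, 11.15 and 11.25 at day 28, against 9.50, 9.85 and 9.78 in Allo/Y (difference 1.37 ± 0.22, adjusted p = 0.000728). The groups lay apart, but by less than the leukocyte genes did: on the leukocyte scale Isg15 stood at -0.78 ± 0.21 and was called lower. So were 20 of the 22 genes, against 93.5% of all genes. Irf7, the transcription factor that amplifies type I interferon, differed by 0.95 ± 0.27 (adjusted p = 0.0164) and Ifit2, which binds viral RNA, by 0.93 ± 0.32 (adjusted p = 0.0389). Without Allo/Y sample 1 or day 28 sample 12, Irf7 was no longer called (0.73 and 0.80). Ifit2 was not called when any one library other than day 28 sample 10 was left out (0.65 to 1.01).

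All 16 measured MHC class II presentation genes were called higher (median 1.99), with H2-Aa, a chain of the class II molecule, at 1.64 ± 0.16, and H2-Oa and H2-Ob, the chains of the class II modulator DO, which B cells express, at 2.12 ± 0.22 and 2.60 ± 0.26. Of 19 MHC class I presentation genes 12 were called higher and 1 lower (median 0.89), led by the nonclassical genes H2-T10 (1.91 ± 0.13) and H2-Q6 (2.19 ± 0.20). On the leukocyte scale 5 of 16 class II genes and 15 of 19 class I genes were called lower (93.5% of all genes were), and 1 and 0 higher.

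Most monocyte and macrophage genes rose less than the leukocyte reference genes, and most of all genes tested lay below that shift too. Monocyte and macrophage genes were called higher in 13 of 18 cases (median 1.28). Adgre1, the adhesion receptor that marks mouse macrophages, read 10.87, 10.95 and 11.14 at day 28, against 9.22, 9.62 and 9.62 in Allo/Y. The libraries within each group were close together and the groups lay apart, 2.84-fold (SE 0.24 on the log2 scale, adjusted p = 0.000828). On the leukocyte scale the sign turned, with Adgre1 at -0.65 ± 0.21 (adjusted p = 0.0106). Of the 18 genes 13 were called lower on that scale, against 93.5% of all genes. Fcgr4, an activating antibody receptor of monocytes, was the only member of this list called higher on that scale, at 0.71 ± 0.26.

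Of 12 resident macrophage genes 3 were called higher (18.9% of all genes were). These were the complement genes C1qa (1.40 ± 0.18), C1qb (1.16 ± 0.17) and C1qc (1.17 ± 0.17), while all 12 were called lower on the leukocyte scale (93.5% of all genes were). Chil3, a chitinase-like protein of alternatively activated macrophages, read 8.90, 8.57 and 10.12 at day 28, against 5.66, 5.65 and 5.63 in Allo/Y (difference 3.55 ± 0.68, 11.7-fold). Arg1, another gene of that state, gave -0.13 ± 1.27 (adjusted p = 0.942), with an SD of 2.02 among the day 28 libraries. Pdcd1lg2, which encodes the PD-1 ligand PD-L2, was not detected on any Allo/Y array and was at least 7.98-fold higher (means 7.99 and 4.76, adjusted p = 0.000341). Neutrophil genes were called higher in 2 of 10 cases, near the 18.9% of all genes, and lower in 6 of 10 on the leukocyte scale, and S100a8, a calcium-binding protein abundant in neutrophils, gave 0.48 ± 0.75 (adjusted p = 0.637). One of those calls, Csf3r, the receptor for granulocyte colony-stimulating factor (1.63 ± 0.55), was lost when any one of the 6 libraries was left out (1.53 to 1.73). Dendritic cell genes were called higher in 10 of 13 cases and lower in 1, with Clec9a, a receptor of cross-presenting dendritic cells, at 2.12 ± 0.29; on the leukocyte scale none was called higher and 8 lower (median -0.82).

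Chemokine genes were called higher in 15 of 26 cases and lower in 2 (18.9% and 24.4% of all genes were). On the leukocyte scale 1 was called higher and 18 lower (median -1.22), against 0.902% and 93.5% of all genes. After Cxcl9, the named members were Ccl5, a chemokine made by cytotoxic lymphocytes (2.38 ± 0.27), and Ccl12, a monocyte attractant of the mouse (1.28 ± 0.17, and -0.87 ± 0.16 on the leukocyte scale, called lower). Of 9 measured chemokine receptor genes 7 were called higher (median 2.89), including Cxcr3, the receptor for CXCL9 (2.89 ± 0.33), and Cxcr4, the receptor for CXCL12 (1.57 ± 0.15). On the leukocyte scale 3 of the 9 were called higher and 2 lower (median 0.735). Complement genes were called higher in 9 of 10 cases. On the leukocyte scale 1 was called higher and 6 lower (median -0.82), again against 0.902% and 93.5% of all genes.

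B cell genes were higher at day 28 in 8 of 9 measured cases, with a median of 1.75. Fcmr, the receptor for IgM, differed by 3.53 ± 0.51 (adjusted p = 0.000460) and Cd22, an inhibitory coreceptor of B cells, by 2.14 ± 0.31. The list mean was 8.53, 7.68 and 8.85 at day 28, against 6.40, 6.83 and 6.44 in Allo/Y, so sample 11 stood nearest to Allo/Y. The T cell list, which was lowest in sample 12, did not share that order. Relative to the leukocyte genes 1 B cell gene was called higher and 3 lower (0.902% and 93.5% of all genes were). Plasma cell genes split, with 3 called higher and 4 lower (0 and 6 on the leukocyte scale); the fallers were led by Txndc5 (-0.96 ± 0.18), Derl3 (-2.25 ± 0.42) and Sdc1 (-1.26 ± 0.34), of which the first pair serve protein folding and quality control in secretory cells generally and Sdc1 is also an epithelial proteoglycan.

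NK cell receptor genes were called higher in 6 of 10 cases (median 0.99), against 18.9% of all genes. On the leukocyte scale 6 of 10 were called lower, against 93.5% of all genes. Klrc1, which encodes the inhibitory receptor NKG2A of NK cells and some CD8 T cells, read 8.04, 8.27 and 7.63 at day 28, against 4.55, 4.80 and 4.50 in Allo/Y, where it was not above background. It was at least 7.94-fold higher at day 28 (adjusted p = 2.11e-05). Among the Ly49 receptor genes of NK cells, Klra8 differed by 1.66 ± 0.37 and Klra7 by 0.16 ± 0.34 (adjusted p = 0.731), with Klra7 groups that overlapped.

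**Figure D3:**
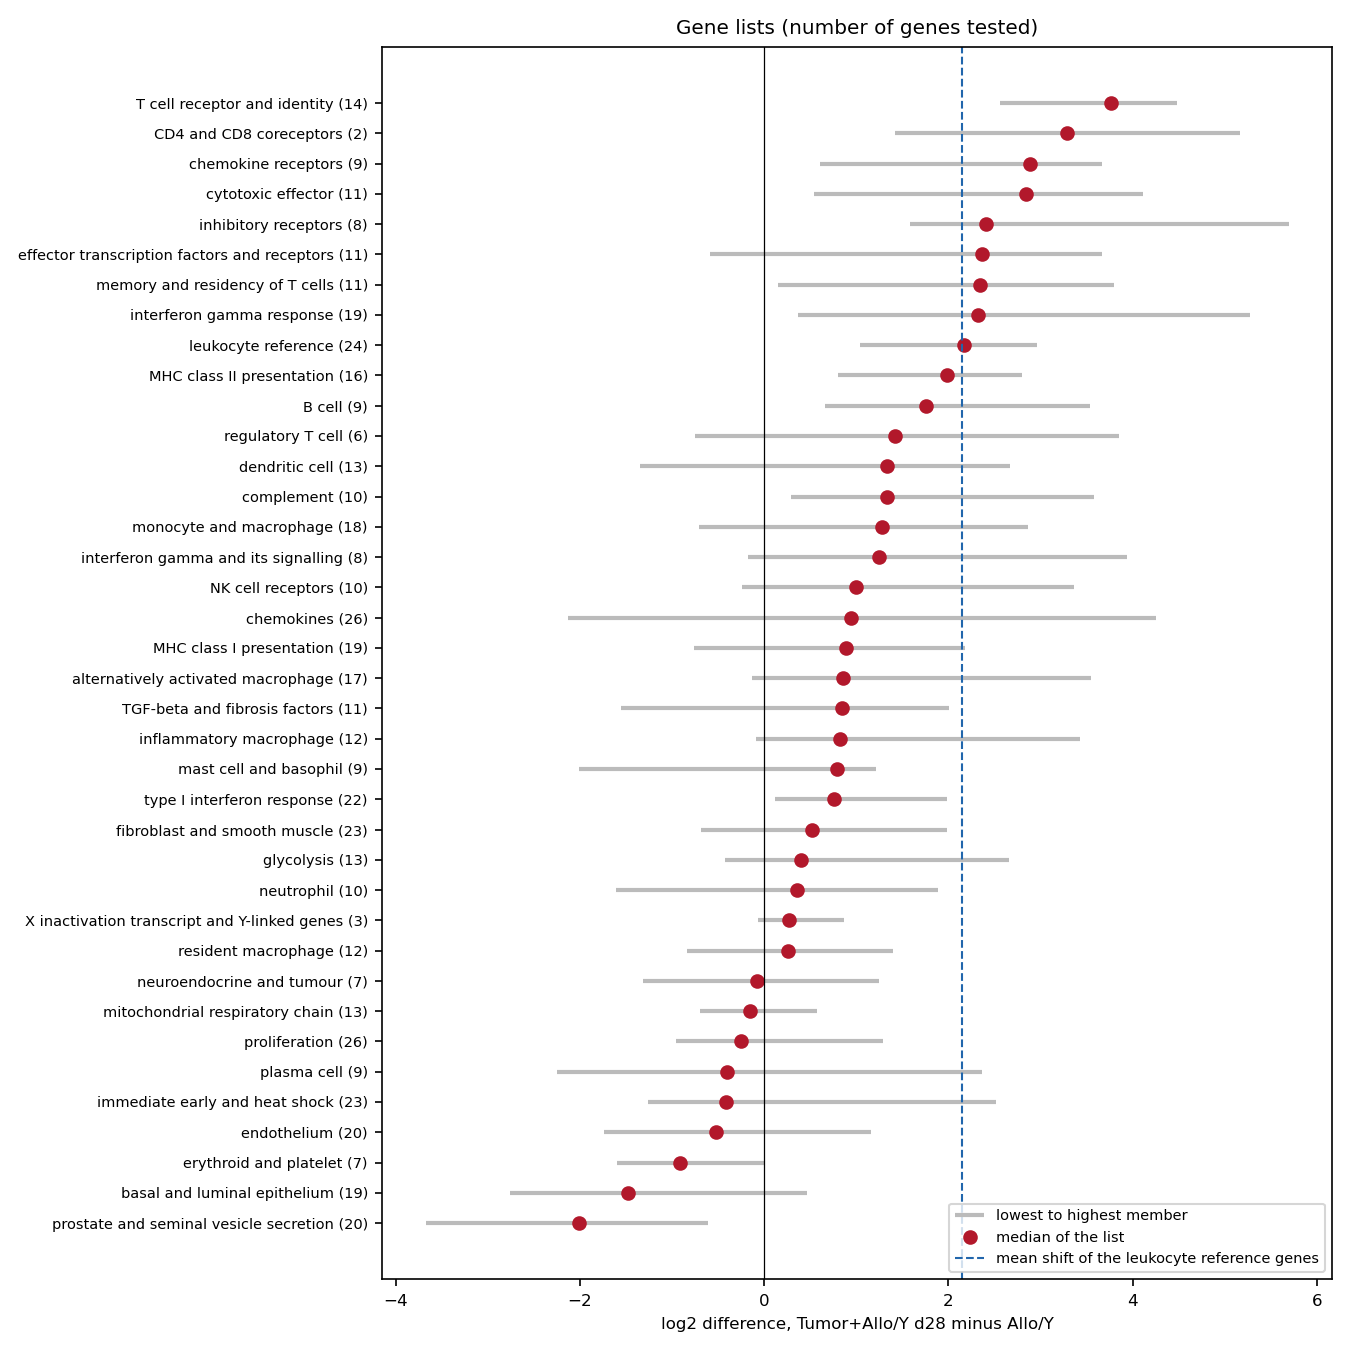
Median (red point) and range from lowest to highest member (grey line) of the log2 difference between Tumor+Allo/Y d28 and Allo/Y for each gene list, with the number of genes tested in brackets. The dashed line marks the mean shift of the leukocyte reference genes (2.15); the T cell receptor and identity list lies highest (median 3.76), and prostate and seminal vesicle secretion lies lowest (median -2.02).

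Secreted products of glands were among the genes that fell most. Scgb2b27, a secretoglobin of the androgen-binding protein family, read 4.80, 5.37 and 5.81 at day 28, where 2 of 3 arrays detected it, against 11.74, 11.25 and 11.70 in Allo/Y. The difference was -6.24 ± 0.73 (adjusted p = 0.000133). Scgb2b7, a gene of the same family, read 5.22, 4.48 and 4.46 at day 28 with 1 of 3 arrays detecting it, and 9.93, 9.68 and 10.65 in Allo/Y (difference -5.37 ± 0.70). Both groups of libraries were thus separated by more than 4 units in each gene.

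Obp2a, an odorant-binding lipocalin, read 5.68, 7.66 and 6.68 at day 28, against 11.27, 11.62 and 10.99 in Allo/Y (difference -4.62 ± 1.10, adjusted p = 0.00707). Tff3, a trefoil peptide of mucous epithelia, differed by -4.21 ± 0.91 and Egf, the epidermal growth factor gene, by -3.61 ± 0.83. Bhlha15, a transcription factor of secretory cells also known as MIST1, differed by -3.58 ± 0.82 (adjusted p = 0.00581). Atp13a4, a membrane ATPase, was not above background on any day 28 array and at least 12.1-fold lower than in Allo/Y (means 4.51 and 8.66, adjusted p = 0.000758). Another probe of Egf gave -0.92, also a call.

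Azgp1, a zinc-binding glycoprotein of glandular secretions, read 9.44, 10.36 and 9.97 at day 28 and 13.57, 13.64 and 13.60 in Allo/Y. Its difference was -3.68 ± 1.12 (12.8-fold lower, adjusted p = 0.0225), and the call was lost without any one of samples 10, 12, 1, 2 and 3 (-3.44 to -3.70). Of 20 measured genes of prostate and seminal vesicle secretion 6 were called lower (24.4% of all genes were) and none higher, and the median was -2.02. The list mean was 9.23, 10.63 and 9.76 at day 28, against 12.55, 10.96 and 12.28 in Allo/Y, so Allo/Y sample 2 lay close to day 28 sample 11. Svs2, a seminal vesicle protein, gave -1.55 ± 0.71 (adjusted p = 0.0978) and was called without Allo/Y sample 2 (-2.30). Pbsn, the probasin gene of prostate epithelium, was not above background at day 28 and at least 1.53-fold lower (means 4.53 and 5.67, adjusted p = 0.0110).

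Epithelial structural genes were called lower in 5 of 19 cases and higher in none (median -1.47), a count near the 24.4% of all genes called lower. Elf5, a transcription factor of glandular epithelium, differed by -2.76 ± 0.54 and Trp63, the transcription factor of basal cells, by -1.73 ± 0.47. Trp63 was no longer called without day 28 sample 12 (-1.50). Krt14, a keratin of basal cells, read 11.75, 11.52 and 11.17 at day 28, against 12.15, 10.66 and 11.53 in Allo/Y, with overlapping groups and a difference of 0.03 ± 0.67 (adjusted p = 0.974). Endothelial genes were called lower in 5 of 20 cases, again near 24.4%, and higher in 1, and Pecam1, the endothelial adhesion molecule CD31, gave -0.13 ± 0.36 (adjusted p = 0.796). All 19 epithelial and 19 of the 20 endothelial genes were called lower on the leukocyte scale, near the 93.5% of all genes.

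Of 23 fibroblast and smooth muscle genes 7 were called higher (18.9% of all genes were), none lower and 16 were not called (median 0.51). Lum, a collagen-binding proteoglycan of fibroblasts, read 8.44, 8.93 and 8.83 at day 28, against 6.49, 7.24 and 7.52 in Allo/Y, without overlap (difference 1.65 ± 0.33, adjusted p = 0.00299). Fn1, which encodes fibronectin and is also expressed by macrophages, differed by 1.71 ± 0.34, but its other probe gave 0.63 and was not called. Tgfb1, which encodes the cytokine TGF-beta of leukocytes and stroma, differed by 2.00 ± 0.21 (adjusted p = 8.19e-05), close to the leukocyte shift (-0.15 ± 0.15 on that scale), and Lox, an enzyme that crosslinks collagen, by 1.20 ± 0.22. None of the 23 was called higher on the leukocyte scale and 18 were called lower (93.5% of all genes were).

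Of 26 proliferation genes 1 was called higher, 5 lower, against 24.4% of all genes, and the rest were not called (median -0.25). Of the 5, Cdk1, the kinase of mitotic entry, differed by -0.92 ± 0.24 (adjusted p = 0.00987). Mcm2, a subunit of the replicative helicase, and Cdc20, an activator of mitotic exit, differed by -0.90 ± 0.25 and -0.95 ± 0.30, and both lost the call without day 28 sample 10 (-0.85 and -0.70) or Allo/Y sample 2 (-0.83 and -0.92); Cdc20 also lost it without samples 11 and 3 (-0.92 and -0.89). The list mean was 8.28, 8.40 and 9.12 at day 28, with sample 12 the highest, against 8.66, 8.89 and 8.93 in Allo/Y. Respiratory chain genes were called lower in 2 of 13 cases, against 24.4% of all genes. Glycolysis genes were called higher in 4 of 13 cases (18.9% of all genes were), including Pfkp, a phosphofructokinase (2.57 ± 0.40), and Slc2a3, a glucose transporter of leukocytes and neurons (1.24 ± 0.17). No glycolysis gene was called higher on the leukocyte scale and 11 were lower (median -1.76), as were all 26 proliferation and all 13 respiratory chain genes. Among all genes 93.5% were called lower on that scale.

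**Figure D4:**
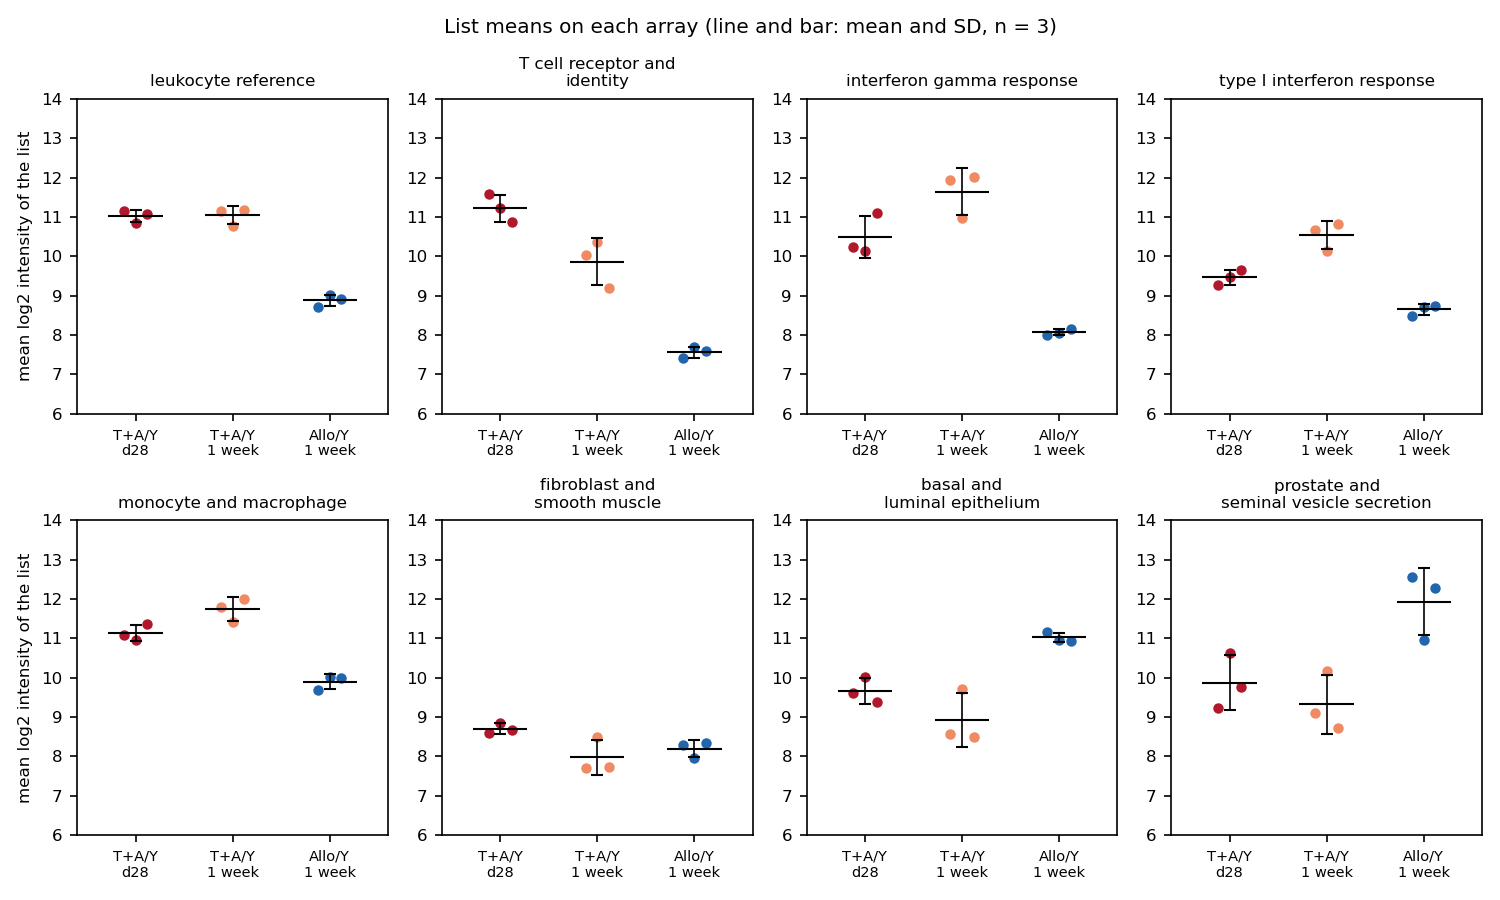
Mean normalized log2 intensity (vertical axis) of 8 gene lists on each array of Tumor+Allo/Y d28 (T+A/Y d28), Tumor+Allo/Y at 1 week (T+A/Y 1 week) and Allo/Y at 1 week; points are arrays, lines and bars the mean and SD of 3. The leukocyte genes lie near 11 in both Tumor+Allo/Y groups and near 9 in Allo/Y, the T cell list is highest at day 28 (10.88 to 11.57), and both interferon lists are highest in Tumor+Allo/Y at 1 week.

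To see which part of the day 28 difference was already present at 1 week, the day 28 libraries were set against the 1 week libraries of the same Tumor+Allo/Y transfer. Since both are compared with the same Allo/Y arrays, this contrast is also the test of whether their differences from Allo/Y differ. It called 245 of 11971 genes (2.05%), 203 higher (1.7%) and 42 lower (0.351%) at day 28, while Tumor+Allo/Y at 1 week differed from Allo/Y in 5734 genes (47.9%; 20.6% higher and 27.3% lower). Relative to the leukocyte genes, 21 genes were called between the times (0.175%), 14 higher (0.117%) and 7 lower (0.0585%). The leukocyte reference genes did not separate the 2 times (mean difference -0.01, none of 24 called by limma and 2 higher at an unadjusted p under 0.05). The number of calls depended on single libraries: without day 28 samples 10, 11 and 12 it was 5, 14 and 396, and without Tumor+Allo/Y samples 7, 8 and 9 it was 43, 472 and 14. Of 30 named genes called in this contrast, 1, 4 and 24 remained called without samples 10, 11 and 12, and 10, 26 and 5 without samples 7, 8 and 9. With only the arrays of the compared groups fitted, 4 of the 30 remained called. Lost there were, among others, Ctla4, Lag3, Cd8b1, Cd3e, Il7r, Gzmk, Isg15, Irf7, Ifit2 and Krt14. A minimum fold of 1.5 left 1 of the 30, and scaling to an equal median left 23. The epithelial list mean was 8.57, 9.72 and 8.48 in samples 7, 8 and 9, so these libraries also differed in epithelial RNA, and its part in the contrast was not tested.

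Klrh1 was higher at day 28 than in both 1 week groups set beside it. This gene of the killer cell lectin-like receptor family read 9.29, 9.62 and 8.39 at day 28, against 5.01, 4.97 and 5.16 in Tumor+Allo/Y at 1 week and 5.29, 5.00 and 4.79 in Allo/Y. All 3 day 28 arrays detected it, against 1 of 3 in each of those groups; the Tumor group at 1 week averaged 6.16, with all 3 arrays detecting it. It was higher by 4.05 ± 0.31 than at 1 week (adjusted p = 0.000969) and by 4.07 ± 0.31 than in Allo/Y (adjusted p = 1.38e-05), and its other probe gave 3.66 against Allo/Y. The difference between the times was called under all 16 alternative settings that could test it, at 3.15 to 4.40.

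Several receptor genes of T and NK cells were higher at day 28 than at 1 week. Klrc1 averaged 7.98 (SD 0.33) at day 28 and read 5.46, 5.70 and 5.85 at 1 week (difference 2.31 ± 0.28, adjusted p = 0.00889), and Lag3 read 7.82, 8.32 and 7.21 at 1 week (difference 2.04 ± 0.25, adjusted p = 0.00889). For both genes every day 28 library lay above every 1 week library. Ctla4 read 10.57, 10.51 and 9.61 at 1 week (difference 2.13 ± 0.33, adjusted p = 0.0245), and Cd8b1 read 12.06, 12.16 and 11.04 (difference 2.20 ± 0.32, adjusted p = 0.0197), so sample 9 was the lowest of its group in both. The calls of Klrc1 and Lag3 were lost without sample 10, that of Cd8b1 without 10 or 11 and that of Ctla4 without 9, 10 or 11. Over all alternatives Klrc1 stayed at 1.76 to 2.48, Lag3 at 1.76 to 2.31, Cd8b1 at 1.71 to 2.40 and Ctla4 at 1.82 to 2.30. On the leukocyte scale Klrc1 was still called between the times (limma adjusted p = 0.0240). Lag3, Ctla4 and Cd8b1 were not called on that scale (differences 2.055, 2.14 and 2.21, limma adjusted p = 0.0508, 0.0780 and 0.0780).

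Klrc1 belongs to the NK cell receptor list, in which 1 of 10 genes was called higher and 2 lower between the times (median -0.81), and 6 were lower at an unadjusted p under 0.05. Klra7 read 9.13, 8.72 and 10.15 at day 28 and 10.65, 11.29 and 10.76 at 1 week, without overlap (difference -1.57 ± 0.34, adjusted p = 0.0469). Its call was lost without any one of samples 7, 8, 9, 10 and 11, and the difference was -1.97 to -1.26 over all alternatives.

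Of 14 T cell receptor and identity genes 4 were called higher at day 28 than at 1 week and none lower, and 3 of 11 cytotoxic and 3 of 11 memory and residency genes were called higher. Cd3e differed by 2.00 ± 0.40 (adjusted p = 0.0398), Il7r by 2.26 ± 0.37 (adjusted p = 0.0245), Cxcr6 by 2.07 ± 0.39 (adjusted p = 0.0371) and Gzmk by 1.64 ± 0.26 (adjusted p = 0.0245). Itgae differed by 2.34 ± 0.53, which was not called (adjusted p = 0.0515). The 14 T cell genes had a median difference from Allo/Y of 3.76 at day 28, against 2.24 at 1 week. On the leukocyte scale Il7r, Cxcr6 and Gzmk were not called between the times (limma adjusted p = 0.0780, 0.0997 and 0.0908). The Cd3e call was lost without any one of samples 7, 9, 10 and 11, those of Il7r and Cxcr6 without 9, 10 or 11, and that of Gzmk without 10 or 11, with differences under all alternatives of 1.57 to 2.32, 1.90 to 2.60, 1.55 to 2.41 and 1.29 to 1.85 in that order.

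Some type I interferon response genes were lower at day 28 than at 1 week. Of 22 type I interferon response genes 8 were called lower and none higher (median -1.01). Isg15 did not exceed 11.25 at day 28, against a lowest value of 12.23 at 1 week (means 11.08 and 12.60, difference -1.52 ± 0.22, adjusted p = 0.0197). Irf7 differed by -1.50 ± 0.27 (adjusted p = 0.0312) and Ifit2 by -1.65 ± 0.32 (adjusted p = 0.0398). Interferon gamma response genes had a median of -1.10, but none of 19 was called by limma after adjustment, and 15 were lower at an unadjusted p under 0.05. Gbp2b gave -1.63 ± 0.65 (adjusted p = 0.201) and Cxcl9 -0.73 ± 0.38 (adjusted p = 0.313), with overlapping groups in both. Ifng was not called between the times (1.07 ± 0.33, adjusted p = 0.114). The Isg15 call was lost without sample 9, 10 or 11 and those of Irf7 and Ifit2 without 7, 9, 10 or 11, with differences under all alternatives of -1.75 to -1.32, -1.75 to -1.31 and -1.94 to -1.42 in that order.

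Basal keratins and some stromal genes were also higher at day 28 than at 1 week. Of 23 fibroblast and smooth muscle genes 4 were called higher between the times (1.7% of all genes were) and none lower (median 0.91). At an unadjusted limma p under 0.05, 15 of the 23 were higher and 1 lower. Krt14 lay between 11.17 and 11.75 at day 28, well above the 7.51, 9.48 and 7.23 of samples 7, 8 and 9 (difference 3.40 ± 0.67, adjusted p = 0.0398). Krt17, another basal keratin, read 11.14, 10.75 and 10.20 at day 28 and 7.72, 8.88 and 7.28 at 1 week (difference 2.73 ± 0.53, adjusted p = 0.0377), while the other 17 of 19 epithelial genes were not called. Lum read 6.72, 7.39 and 6.73 at 1 week (difference 1.79 ± 0.33, adjusted p = 0.0364), and Lox differed by 1.11 ± 0.22 (adjusted p = 0.0398). Scgb2b27 was lower at day 28 than at 1 week, where it read 9.41, 10.71 and 9.27 (difference -4.47 ± 0.73, adjusted p = 0.0245), as was Scgb2b7 (difference -3.45 ± 0.70, adjusted p = 0.0401). Each of the 6 calls of genes named here was lost without any one of samples 7, 9, 10 and 11. Those of Lox and Scgb2b7 were also lost without 12, and that of Scgb2b7 without 8. Over all alternatives Krt14 stayed at 2.98 to 4.10, Krt17 at 2.39 to 3.19, Lum at 1.54 to 2.01, Lox at 0.92 to 1.24, Scgb2b27 at -4.73 to -3.50 and Scgb2b7 at -3.70 to -2.59.

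Further genes named in this contrast were Cartpt, a neuropeptide precursor, and Esm1, a proteoglycan of endothelial tip cells. Cartpt read 8.03, 9.10 and 7.65 at day 28, 5.87, 4.38 and 5.18 in Tumor+Allo/Y at 1 week and 7.06, 5.57 and 6.17 in Allo/Y, a difference between the times of 3.11 ± 0.52 (adjusted p = 0.0265). Esm1 read 8.74, 8.32 and 8.67 at day 28, 7.07, 6.59 and 4.90 at 1 week and 5.77, 4.85 and 5.72 in Allo/Y, a difference between the times of 2.39 ± 0.49 (adjusted p = 0.0401). In both genes the day 28 libraries lay above all libraries of these other groups. The Cartpt call was lost without sample 9, 10 or 11, and that of Esm1 without any library but sample 8, with ranges over all alternatives of 2.42 to 3.48 for Cartpt and 1.75 to 2.84 for Esm1.

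Some genes of interest could not be followed. The single probes for Jchain, the joining chain of secreted antibodies, and for the epithelial gene Epcam were detected on 0 arrays, and no probe was assigned to Cd79a, Ighm or Mki67 in the annotation used.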

How the data were processed

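RNA of prostate CD45+ cells was hybridized to Illumina BeadChips. The deposited raw table holds signal intensity per probe and array with a detection p-value, neither normalized nor background-subtracted as judged from its values. The submitters' processing notes name GenomeStudio, without a version. A normalized table deposited by the authors, also linear intensity, served as an alternative; its scale and centring are not stated and were read from the values. Direction is not at issue on this 1-colour array.

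With limma 3.58.1 in R 4.3.3, the raw signals were background-corrected by neqc (offset 16, negative controls inferred from detection p), quantile normalized and put on a log2 scale. Probes detected (p under 0.05) on at least 3 of 12 arrays were kept: 23054, of which 3819 had no single gene symbol and were left out of the gene fit. The kept probe with the highest mean stood for each gene; 4832 genes had several. A single group-means model of all 12 arrays, moderated by eBayes, gave two-sided p-values with Benjamini-Hochberg adjustment over 11971 genes. An exact test of 3 arrays against 3 could not go below p = 0.1 and was left out. A second scale subtracts each array's mean of 24 leukocyte genes. Where no array of a group detected a gene, its fold is a bound ("at least"), the brighter group's mean against the dim group's background level. The number of arrays limits the precision.

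The members, gene lists and rules were chosen with earlier results of these data known. The gene lists are described by counts, with no test. Named genes are the 12 largest rises and 12 largest falls against Allo/Y among called genes whose groups do not overlap, the 6 largest each way between the times and on the leukocyte scale, up to 3 called members per list with the smallest p, and a set named throughout. Alternatives changed background correction, normalization, detection filter, handling of several probes, arrays in the fit, variance model and minimum fold, and left out each array in turn. Which chip carried each array is not given in the sources used here, so chip effects were not tested. The fit was tested on simulated data.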

Additional observations from a re-analysis of the deposited data

Results flagged for a closer look

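Of the 3819 kept probes without a single gene symbol, which the gene comparisons leave out, 1544 (40.4%) were called between Tumor+Allo/Y d28 and Allo/Y, 817 higher and 727 lower at day 28. Probe ILMN_1221149 read 13.95, 13.73 and 13.78 at day 28, against 8.32, 8.49 and 7.15 in Allo/Y (difference 5.83 ± 0.32, adjusted p = 4.05e-06), a larger rise than that of any named gene. Probe ILMN_2633179 read 13.20, 12.07 and 13.20 at day 28, against 9.99, 4.72 and 4.93 in Allo/Y (difference 6.28 ± 1.53, adjusted p = 0.00773), so Allo/Y sample 1 stood far above the other two of its group. Probe ILMN_1250988 read 6.83, 6.97 and 6.96 at day 28, against 12.39, 12.49 and 13.12 in Allo/Y (difference -5.75 ± 1.12), and probe ILMN_2566425 read 4.78, 5.30 and 4.83 at day 28, against 8.66, 8.71 and 8.50 in Allo/Y (difference -3.65 ± 0.70). The annotation used gives these probes no single gene, and none is named here.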

How the results depend on the processing

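Against Allo/Y, leaving out 1 array gave 3846 to 4466 calls (1749 to 1983 higher, 2097 to 2483 lower); testing every kept probe gave 9619 (4593 higher, 5026 lower), since more features were tested, and a minimum fold of 1.5 gave 1399 (797 and 602). With each array scaled to an equal median, 37.5% of calls were higher, against 43.6% under the reported scaling. On the leukocyte scale, leaving out 1 array gave 11077 to 11201 calls (76 to 107 higher, 10999 to 11111 lower), every kept probe gave 21730 (235 higher, 21495 lower), array weights 189 higher and a minimum fold of 1.5 gave 37 higher. Between day 28 and 1 week of Tumor+Allo/Y, leaving out 1 array gave 5 to 472 calls (5 to 315 higher, 0 to 157 lower; the lowest total, 5, includes no lower call, against 2427 genes at an unadjusted p under 0.05 by limma with all arrays). There, every kept probe gave 610 (507 and 103), an equal median 146 (126 and 20), the arrays of both groups alone 7 (5 and 2), array weights, whose estimation did not converge, 2867 (1390 and 1477), a minimum fold of 1.5 gave 4 (4 and 0), and detection on all 12 arrays gave 71 lower calls. List medians changed sign for plasma cells against Allo/Y (1.71 with detection on all arrays) and the respiratory chain (0.028 with every probe). Between the times they did so for dendritic cells (-0.062 with detection on all arrays, and -0.081 to 0.147 with 1 array left out), regulatory T cells (0.73 with every probe, 0.45 with the mean of probes) and interferon gamma signalling (-0.298 with every probe, -0.007 with the mean of probes). Apart from the alternatives' own construction, the cause was not tested. Of 125 named genes called against Allo/Y, 116 to 121 remained called without 1 array, and 95 at a minimum fold of 1.5. No paired analysis was possible because the labels give every array a number of its own. Dim probes bound some changes only from below.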
